A study of Mus musculus with 2 samples.

Results

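The genes described here code for the anchors that hold epithelial cells of the skin to the basement membrane, and 9 were followed by their symbols among the 32285 genes listed in the count tables. They were Col17a1, Dst, Itga6 and Itgb4 of the hemidesmosome, Itga3, the laminin chains Lama3, Lamb3 and Lama5, and Col7a1 of the anchoring fibrils. Each symbol occurred on 1 row. On the mouse build mm10 (GRCm38), Col17a1 lies at chr19:47646344-47692094, Dst at chr1:33908225-34308661, Itga6 at chr2:71745616-71858416, Itgb4 at chr11:115974709-116008412, Itga3 at chr11:95044474-95076801, Lamb3 at chr1:193207699-193343878, Lama5 at chr2:180176373-180225859 and Col7a1 at chr9:108953586-108984875, by the GENCODE annotation. Their levels were compared between epithelial cells that touch the basement membrane and cells of inner layers, in 2 single-cell libraries of mouse back skin at postnatal day 1. One library was labelled WT and the other PADI4 cKO, the latter with the floxed Padi4 gene (Padi4 fl/fl) deleted by K14-Cre, a recombinase under the promoter of a basal keratin and so active in skin epithelium. The preparation text names K14-Cre Padi4 fl/fl skin for both libraries, and the groups follow the genotype label. No treatment was given, both libraries carried the same batch label, and the number, sex and littermate status of the animals were not given in the labels. The epidermis was peeled off with dispase, and tdTOMATO-positive cells were sorted from the dermal fraction with its growing hair follicles.

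A hemidesmosome is a plaque on the basal face of an epithelial cell. In it, the integrin pair alpha6 (Itga6) and beta4 (Itgb4) and the transmembrane collagen XVII (Col17a1) link keratin filaments, by way of plectin and the epithelial form of dystonin (Dst, BP230), to laminin-332 outside the cell. Laminin-332 contains the chains alpha3 (Lama3) and beta3 (Lamb3), and collagen VII (Col7a1) ties it to the dermis below. Integrin alpha3 (Itga3), with beta1, binds the same laminin outside hemidesmosomes. Laminin alpha5 (Lama5) belongs to other laminins of the epithelial basement membrane and is known for its part in hair growth.

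Cells were placed in classes by marker genes that held none of these 9 genes. The classes were outer root sheath-like (ORS-like), lower proximal cup-like (LPC-like), germinative layer-like (GL-like), upper hair follicle-like (uHF-like), sebaceous gland-like (SG-like), inner root sheath-like (IRS-like), hair cortex-like (Cx-like) and medulla-like (Med-like). Cells gated by suprabasal epidermal markers were split by the share of Krt1 and Krt10 among their UMIs of Krt1, Krt10, Krt5 and Krt14. Those under 50% are called basal-keratin epidermal cells, although their marker list is suprabasal. Their excess of the basal keratins Krt5 and Krt14 follows from this rule. The rest are called suprabasal epidermal-like cells. A small group is called Krt75-high cells by its leading gene. ORS-like cells numbered 931 in WT and 942 in the library labelled PADI4 cKO, LPC-like cells 573 and 735, GL-like cells 492 and 640, IRS-like cells 785 and 569, and Cx-like cells 433 and 325. Of the epithelial cells, 42.9% and 41.1% met no gate and were left unassigned. ORS-like and LPC-like cells stood for the outer, basement membrane-facing cells, and IRS-like and Cx-like cells for the inner ones. Med-like cells, 319 and 377 in number, are also of an inner layer but were in neither group. Suprabasal epidermal-like cells numbered 22 and 2, under the minimum of 50 for a class, and were kept out of that contrast.

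The libraries held 8148 and 7438 cells, with a median of 14653.5 and 16190 UMIs per cell, and shared 14 cell barcodes. Levels are given in CPM, the UMIs of a gene scaled by the UMIs of all genes, after both were summed over the cells of a class. With 1 library per genotype there was no replicate and no test, and intervals (95%) cover counting error only. Padi4 itself gave 100 UMIs (0.774 CPM) in WT and 92 (0.704 CPM) in the library labelled PADI4 cKO, so its 3′ tags did not separate the libraries, and whether they lie in the deleted part is not given in the sources used here. The libraries also differed in sex-linked transcripts. Cells with Xist and no Y-linked UMIs made up 26.9% of the WT library and 99.7% of the other one, while cells with Y-linked UMIs and no Xist made up 59.5% and 0%.

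The 250 bases before the RefSeq transcript start are shown for 4 of the genes, since these part ways at the base of the follicle. Col17a1 and Col7a1 were low in GL-like cells, while Lama5 and Itga3 kept more of their ORS-like level there. The windows are from RefSeq on GRCm38.p6, the mouse build also named mm10, 5′ to 3′ on the gene's strand, at chr19:47692043-47692292 (minus strand) for Col17a1, chr9:108953336-108953585 (plus) for Col7a1, chr2:180225860-180226109 (minus) for Lama5 and chr11:95076715-95076964 (minus) for Itga3. For Col17a1 and Itga3 the RefSeq start lies inside the GENCODE span given above, so part of each window overlaps that span. Capitals mark TATAAA, the core of a TATA box, and GGGCGG, a GC box, on either strand.
Col17a1: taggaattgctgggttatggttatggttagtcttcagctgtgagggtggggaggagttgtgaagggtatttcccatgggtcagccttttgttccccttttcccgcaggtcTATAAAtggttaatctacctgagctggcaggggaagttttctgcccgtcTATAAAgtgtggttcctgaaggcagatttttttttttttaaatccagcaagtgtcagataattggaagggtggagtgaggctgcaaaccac
Col7a1: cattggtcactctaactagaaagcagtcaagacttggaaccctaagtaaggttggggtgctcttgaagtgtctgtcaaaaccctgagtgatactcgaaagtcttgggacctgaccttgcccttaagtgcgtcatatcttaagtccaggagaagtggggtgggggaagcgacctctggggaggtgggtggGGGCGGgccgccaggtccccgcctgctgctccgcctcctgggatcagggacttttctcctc
Lama5: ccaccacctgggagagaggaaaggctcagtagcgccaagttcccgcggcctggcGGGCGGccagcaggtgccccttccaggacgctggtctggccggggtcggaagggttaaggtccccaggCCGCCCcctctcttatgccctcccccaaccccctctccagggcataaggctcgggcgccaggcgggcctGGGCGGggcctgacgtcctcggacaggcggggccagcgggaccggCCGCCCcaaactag
Itga3: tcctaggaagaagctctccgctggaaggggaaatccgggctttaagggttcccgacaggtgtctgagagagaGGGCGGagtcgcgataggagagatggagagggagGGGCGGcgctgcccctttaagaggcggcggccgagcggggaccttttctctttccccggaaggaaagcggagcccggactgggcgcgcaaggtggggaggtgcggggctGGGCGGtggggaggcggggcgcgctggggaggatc
The Col17a1 window held 2 copies of TATAAA and none of GGGCGG, at 46.0% G and C. The Col7a1 window held 1 GGGCGG, the Itga3 window 3 and the Lama5 window 4, with 56.4%, 67.6% and 72.4% G and C. Of all 32851 windows of this length, 12.4% held TATAAA, 32.7% held GGGCGG, and the median was 52.4% G and C. Windows of Dst and Lamb3, both also low in GL-like cells, did not share the letters of the Col17a1 window: the first Dst window had 4 copies of GGGCGG at 68.8% G and C, the second had neither motif at 45.2%, and the Lamb3 windows had neither at 58.8% and 61.2%. The 4 shown are thus examples, and these matches describe letters only. RefSeq windows matched 6 of the 9 genes, and Itga6, Itgb4 and Lama3 had no entry.

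Most of the hemidesmosome and basement membrane genes were higher in outer than in inner cells, in both libraries. In WT, 8 of 9 lay at or above 2-fold, beside 15.3% of the 11724 genes compared, and in the library labelled PADI4 cKO 7 of 9 did, beside 15.3% of 11788 genes. The median log2 ratio of the 9 genes was 1.79 and 1.77, against 0.04 and 0.03 over all genes. Dst, Col7a1 and Col17a1 stood highest, with outer means 8.63-fold, 8.0-fold and 7.63-fold the inner means in WT and 8.55-fold, 8.07-fold and 7.89-fold in the other library. Lama3 was the exception and was higher in the inner cells of both libraries, though by less than 2-fold. None of the 9 genes reached 2-fold in that direction, beside 5.86% and 6.31% of all genes. Lama5 lay on either side of the 2-fold limit, at 2.01-fold in WT (log2 1.00) and 1.96-fold in the other library (log2 0.97). These counts hold for IRS-like and Cx-like cells as the inner cells, since Med-like cells were not part of the inner mean. In WT, Itgb4 in Med-like cells, at 71.3 CPM, overlapped LPC-like cells, at 73.8. In the other library it was at 46.0 and 72.4. Lama5 in Med-like cells overlapped ORS-like cells in both libraries.

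**Figure D1:**
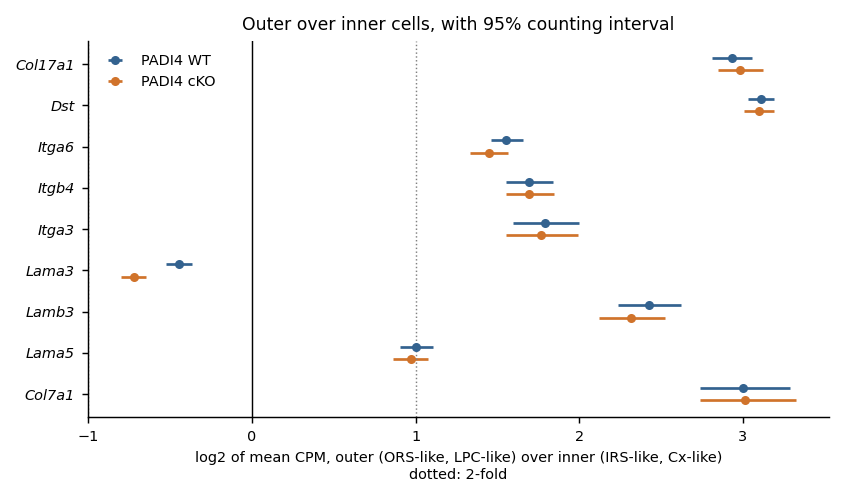
Ratio of the mean level in outer (ORS-like, LPC-like) over inner (IRS-like, Cx-like) cells for each gene, on a log2 scale, with the 95% counting interval (bars) in each library and a dotted line at 2-fold. Col17a1, Dst and Col7a1 lie near 3 in both libraries, Lama5 lies at the 2-fold line, and Lama3 lies below 0.

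Col17a1, the collagen that spans the basal membrane of the cell, was uneven along the follicle. ORS-like cells held 427 CPM (interval 414 to 440) in WT and 393 (381 to 405) in the library labelled PADI4 cKO. LPC-like cells held 106 (100 to 113) and 99.5 (94.4 to 105), and GL-like cells 17.2 (14.7 to 20.1) and 18.4 (16.2 to 20.8). The level was thus lower at each step from sheath to bulb, and in GL-like cells it overlapped that of IRS-like cells, at 21.3 (18.8 to 24.0) and 20.8 (18.1 to 23.8). Cx-like cells held 48.5 and 41.5 CPM and Med-like cells 65.3 and 49.6. Outside the lower follicle, basal-keratin epidermal cells held 366 and 244 CPM and uHF-like cells 223 and 211. RNA outside cells could account for at most 11.2 and 3.17 CPM of Col17a1, so the GL-like and IRS-like values of WT were close to that bound.

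Dst, coding for a plakin that binds keratin filaments, stayed high in LPC-like cells. Its level was 733 CPM (716 to 751) and 709 (693 to 725) in ORS-like cells and 560 (546 to 574) and 415 (404 to 426) in LPC-like cells. GL-like cells held 149 and 137 CPM, and IRS-like cells 48.3 and 52.5. The drop from ORS-like to LPC-like cells was therefore smaller than for Col17a1, and GL-like cells stood clear of IRS-like cells. Dst makes neuronal, muscle and epithelial forms from 1 locus, and 3′ counts do not tell them apart.

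The integrin pair of the hemidesmosome kept more of its sheath level in the bulb than Col17a1 did. Itga6 was at 230 CPM in ORS-like, 130 in LPC-like and 97.0 in GL-like cells of WT, and at 176, 104 and 86.8 in the other library. Its partner Itgb4 was at 115, 73.8 and 52.7 CPM, and at 128, 72.4 and 51.1. For both, GL-like cells stood above IRS-like cells, where Itga6 was at 37.0 and 33.1 CPM and Itgb4 at 17.3 and 16.4. Itga6 was as high or higher outside the lower follicle, with 330 CPM in basal-keratin epidermal cells of WT and 259 and 258 in uHF-like cells. In SG-like cells Itga6 was at 220 and 216 CPM while Itgb4 was at 44.0 and 52.2, so the pair differed in how SG-like cells ranked against ORS-like cells.

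Itga3, the laminin receptor outside the hemidesmosome, was at 56.1 CPM (51.5 to 61.1) and 53.5 (49.2 to 58.1) in ORS-like cells. It was at 43.3 and 38.7 CPM in LPC-like cells, 31.9 and 25 in GL-like cells, and 10.7 and 8.6 in IRS-like cells. Its decline from sheath to bulb was shallow beside that of Col17a1.

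**Figure D2:**
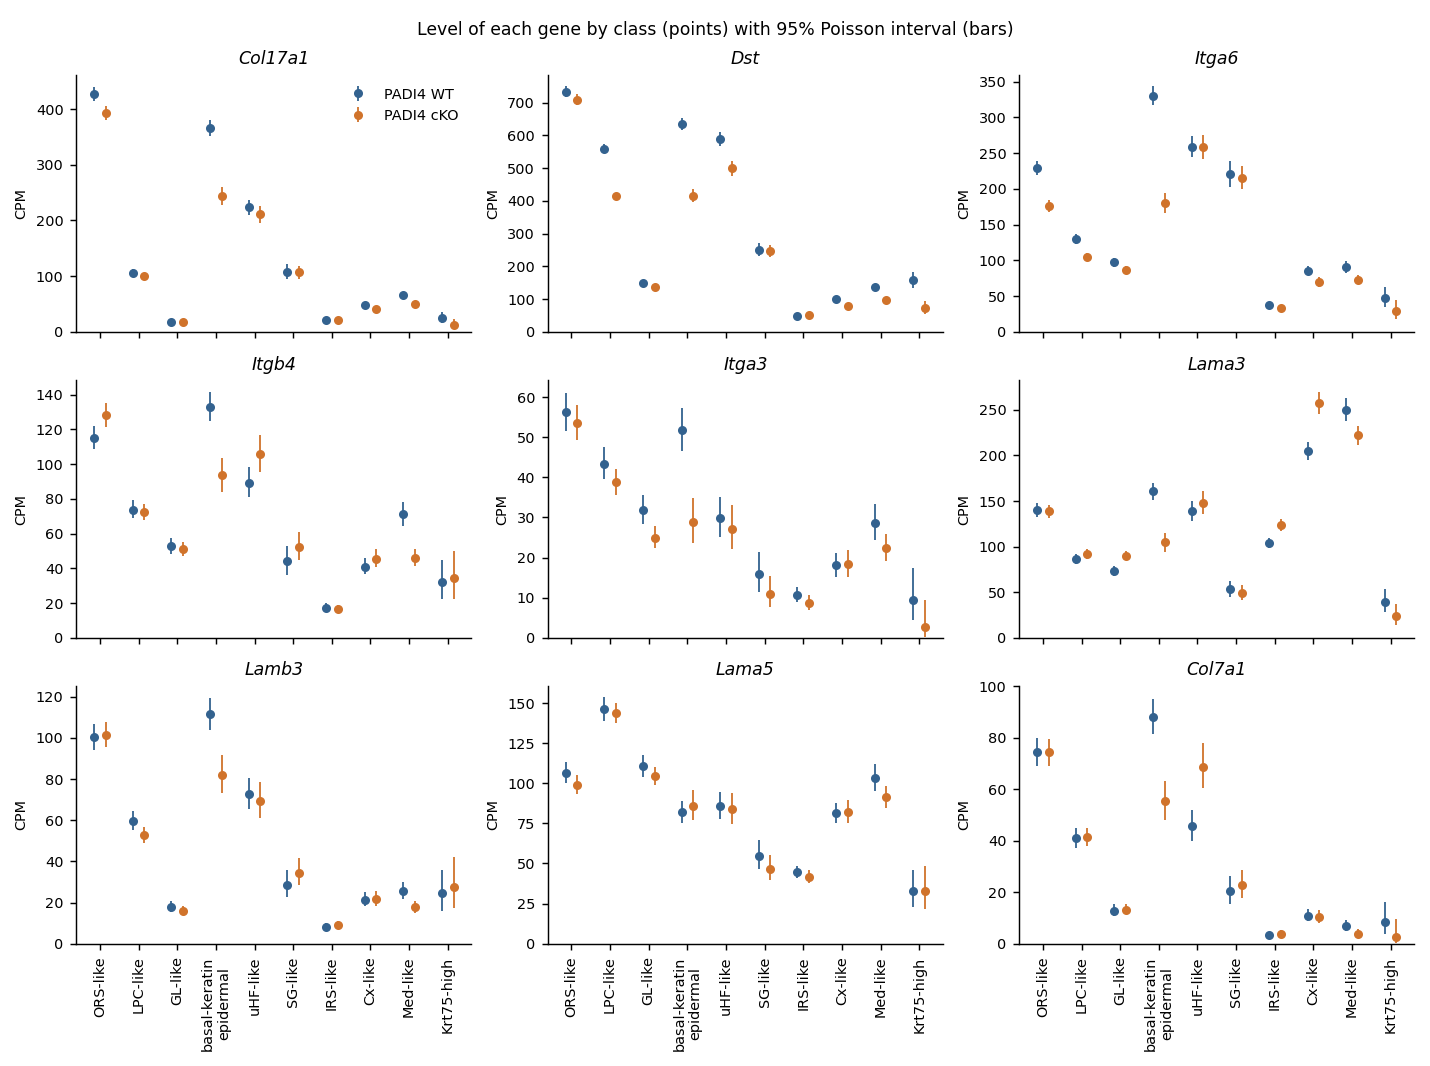
Level (CPM) of each of the 9 genes in 10 classes of cells, with the 95% Poisson interval (bars), in both libraries; each panel has its own scale. Col17a1 is at 17.2 and 18.4 CPM in GL-like cells, whereas Lama5 is highest in LPC-like cells, at 146 and 144 CPM, and Lama3 in Med-like cells of WT and Cx-like cells of the other library.

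Of Lama3 and Lamb3, both chains of laminin-332, Lamb3 kept to the outer cells and Lama3 did not. Lamb3 was at 100 CPM and 102 CPM in ORS-like cells, 59.7 and 52.8 in LPC-like cells, 18.0 and 15.9 in GL-like cells, and 8.3 and 8.9 in IRS-like cells. Lama3 was at 140 CPM (133 to 148) and 139 (132 to 146) in ORS-like cells but at 205 (195 to 215) and 257 (245 to 270) in Cx-like cells. Med-like cells were also high in Lama3, at 250 (237 to 263) and 222 (212 to 233). IRS-like cells held 104 and 123 CPM, more than the 86.1 and 91.9 of LPC-like cells. In WT this order held in cells with Xist and no Y-linked UMIs, at 137 CPM in IRS-like and 54.4 in LPC-like cells, but not in cells with Y-linked UMIs and no Xist, at 92.4 and 95.4. The shaft-like classes, Cx-like and Med-like, thus had the highest Lama3 of the 10 classes in both libraries. Their names are not sharp. Cx-like cells raised 4 of 10 cortex markers and 4 germinative ones, and Med-like cells 3 of 3 medulla markers and 5 germinative ones. The log2 ratio of outer over inner cells for Lama3 was -0.45 (-0.53 to -0.37) and -0.72 (-0.80 to -0.65). It rested on Cx-like cells in both libraries and was 0.12 and -0.10 without them. In WT cells with Xist and no Y-linked UMIs it was -1.06, and in such cells of the other library -0.72. WT cells with Y-linked UMIs and no Xist differed less. They held 156 and 95.4 CPM of Lama3 in ORS-like and LPC-like cells, against 92.4 and 189 in IRS-like and Cx-like cells. RNA outside cells could account for at most 5.80 and 1.99 CPM of Lama3.

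The ratio of Lamb3 to Lama3 moved with this. For each Lama3 UMI there were 0.716 and 0.731 Lamb3 UMIs in ORS-like cells and 0.694 and 0.575 in LPC-like cells. The ratio was 0.246 and 0.177 in GL-like cells, 0.105 and 0.0853 in Cx-like cells, and 0.102 and 0.0796 in Med-like cells. Lamb3 was therefore low against Lama3 in the shaft-like classes. A UMI count depends on each transcript's 3′ end, so the ratio is read between classes and not as a chain stoichiometry.

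**Figure D3:**
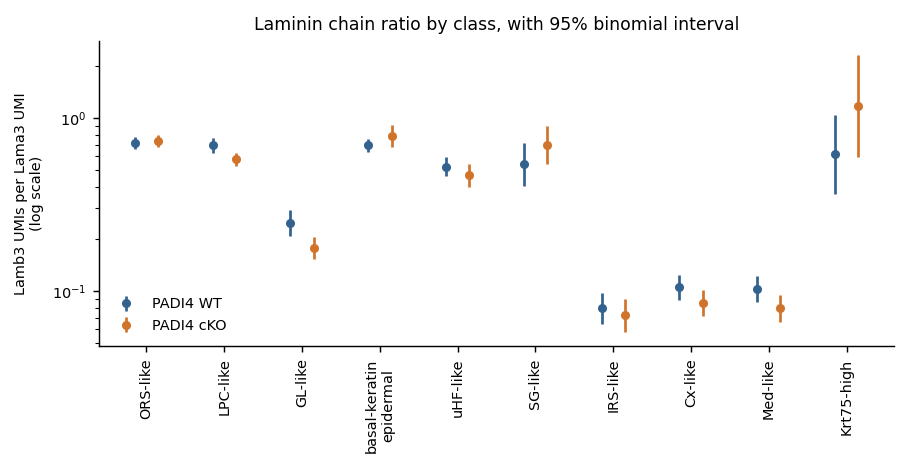
Lamb3 UMIs per Lama3 UMI in each class, on a log axis, with the 95% binomial interval (bars), in both libraries. The ratio is 0.716 and 0.731 in ORS-like cells and lies between 0.0725 and 0.105 in IRS-like, Cx-like and Med-like cells.

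Lama5, a chain of other basement membrane laminins, was ordered differently again. It was highest in LPC-like cells, at 146 CPM (139 to 154) and 144 (138 to 150). GL-like cells, at 111 and 104 CPM, overlapped ORS-like cells, at 107 and 99.1. Med-like cells held 103 and 91.3 CPM, Cx-like cells 81.2 and 82.2, and IRS-like cells 44.8 and 41.8. Lama5 was thus the only one of the 9 genes with its highest class in the lower proximal cup.

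Col7a1, the collagen of the anchoring fibrils, was at 74.3 CPM in ORS-like cells of both libraries, 41.1 and 41.3 in LPC-like cells, and 12.8 and 13.3 in GL-like cells. It was at 3.4 and 3.9 CPM in IRS-like cells and at 6.8 and 3.9 in Med-like cells. Its highest WT level was in basal-keratin epidermal cells, at 88.1 CPM. RNA outside cells could account for at most 2.61 and 0.745 CPM.

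GL-like cells, at the base of the bulb, held a part of this set. In WT, 6 of the 9 genes were at least 2-fold lower there than in ORS-like cells, beside 13.1% of all genes, and 7 of 9 in the other library, beside 14%. The 6 were Col17a1, Dst, Itga6, Itgb4, Lamb3 and Col7a1, and Itga3 joined them in the library labelled PADI4 cKO. Lama3 and Lama5 stayed within 2-fold in both. In LPC-like cells Col17a1 alone was 2-fold lower, beside 6.58% and 6.42% of all genes.

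Other genes of the basement membrane were also followed in GL-like cells. Lamb1, a chain that partners Lama5, was at 117 and 113 CPM there, against 54.9 and 58.6 in ORS-like cells. Lamc1, the common gamma chain, was at 160 and 172 CPM, against 185 and 193. Col4a1 and Col4a2, the main chains of collagen IV, were at 351 and 272 CPM and at 175 and 138, against 153 and 145 and 111 and 112 in ORS-like cells. Lamb3 was thus low in GL-like cells, while Lama5, its partners and collagen IV were at or above their ORS-like levels, Lamc1 being slightly below.

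Across the basement membrane scaffold and interfollicular matrix, 16 of 21 genes compared were at least 2-fold higher in outer cells in both libraries, beside 13.5% of all genes. They included Tnc, coding for tenascin-C, with log2 ratios of 4.15 and 3.77, Col4a1, with 3.01 and 2.67, and Egfl6, coding for a matrix protein of the follicle, with 3.78 and 3.58. Npnt, coding for nephronectin, was at 264 and 126 CPM in ORS-like cells. The chains Col4a3 and Col4a4 were far higher in ORS-like than in LPC-like cells, with 63.5 and 54.3 CPM and 130 and 144, against 1.7 and 4.1 and 9.0 and 7.9. Fibroblasts make several of these matrix proteins, and the summed level of 6 fibroblast markers ranged from 1.32 to 16.3 CPM over the epithelial classes, all 6 being seen; its part in these ratios was not tested. Of the other integrins, 3 of 6 passed, namely Itgb1, Itgb6 and Itgb8, and Itga2 did not, at -0.14 and -0.48. The laminin chain Lamb1 stood at 1.08 and 1.15 and Lamc1 at 1.13 and 0.96. Of Plec and Cd151, which code for plectin and a tetraspanin of the hemidesmosome, neither did, at 0.46 and 0.51 and at 0.58 and 0.68. Of focal adhesion and shedding genes 3 of 8 passed, namely Parva, Adam9 and Mmp14. In no list did a gene reach 2-fold higher in the inner cells of both libraries, beside 4.99% of all genes.

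Within single cells the genes were seen together in the sheath. After each cell was thinned to 2000 UMIs, an ORS-like cell held a mean of 2.68 and 2.58 of the 9 genes, a LPC-like cell 1.76 and 1.72, a GL-like cell 0.939 and 0.917 and an IRS-like cell 0.468 and 0.480. Cells with none made up 4.40% and 4.88% of ORS-like cells and 62.9% and 63.1% of IRS-like cells. Col17a1 was seen in 57.0% and 51.9% of thinned ORS-like cells, 2.2% of GL-like cells in both libraries, and 4.1% and 2.8% of IRS-like cells. Unthinned, with a median of 9161 and 10423 UMIs in ORS-like and 15423 and 16992 in IRS-like cells, these shares were 89.0% and 91.5%, 22.0% and 24.4%, and 19.6% and 19.2%. Melanocyte-like cells, a type that should lack Col17a1, gave 6.4% and 11.6% thinned over 47 and 43 cells, 5 and 1 of them scored as doublets. The GL-like and IRS-like shares were not above this background, which rests on few cells. By CPM, Col17a1 was at 17.2 and 21.3 in GL-like and IRS-like cells of WT, against a bound of 11.2 for RNA outside cells. It was at 18.4 and 20.8 in the library labelled PADI4 cKO, against a bound of 3.17.

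Clusters made without these genes gave more detail. Of 27 clusters, cluster 13 had 629 and 564 CPM of Col17a1 and cluster 19 had 514 and 417, both with 6 of 6 ORS markers raised. Cluster 11, led by Tagln, Krt19 and Anxa3, had 64.0 and 51.0 CPM of Col17a1 but 113 and 114 of Itga3 and 216 and 208 of Lama5. Cluster 15, with Krtap8-1 among its leading genes, had 335 and 361 CPM of Lama3. The highest Lama3 cluster was cluster 25, with 5 of 6 ORS markers raised, at 534 CPM in 55 cells of the library labelled PADI4 cKO, while its 42 WT cells (188 Lama3 UMIs) were under the minimum for a level. These clusters were picked after their values were seen.

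In the epidermis and upper follicle the genes were followed along a keratin scale, the share of Krt1 and Krt10 UMIs among those of Krt1, Krt10, Krt5 and Krt14. In WT, Col17a1 was at 289 CPM in 368 cells at 0%, 334 in 400 cells over 0 to 5%, 195 in 70 cells over 5 to 50% and 40.2 (18.4 to 76.4) in 17 cells over 50%. Dst was at 645, 623, 359 and 188 CPM in the same cells. In the library labelled PADI4 cKO the first 3 bins held 234, 245 and 122 CPM of Col17a1 and 485, 474 and 249 of Dst, and the last bin held 1 cell. Both genes were lower once suprabasal keratins passed 5%, and this held without the last bin. Lama3 was less steep, at 155, 152 and 124 CPM in the first 3 bins of WT.

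**Figure D4:**
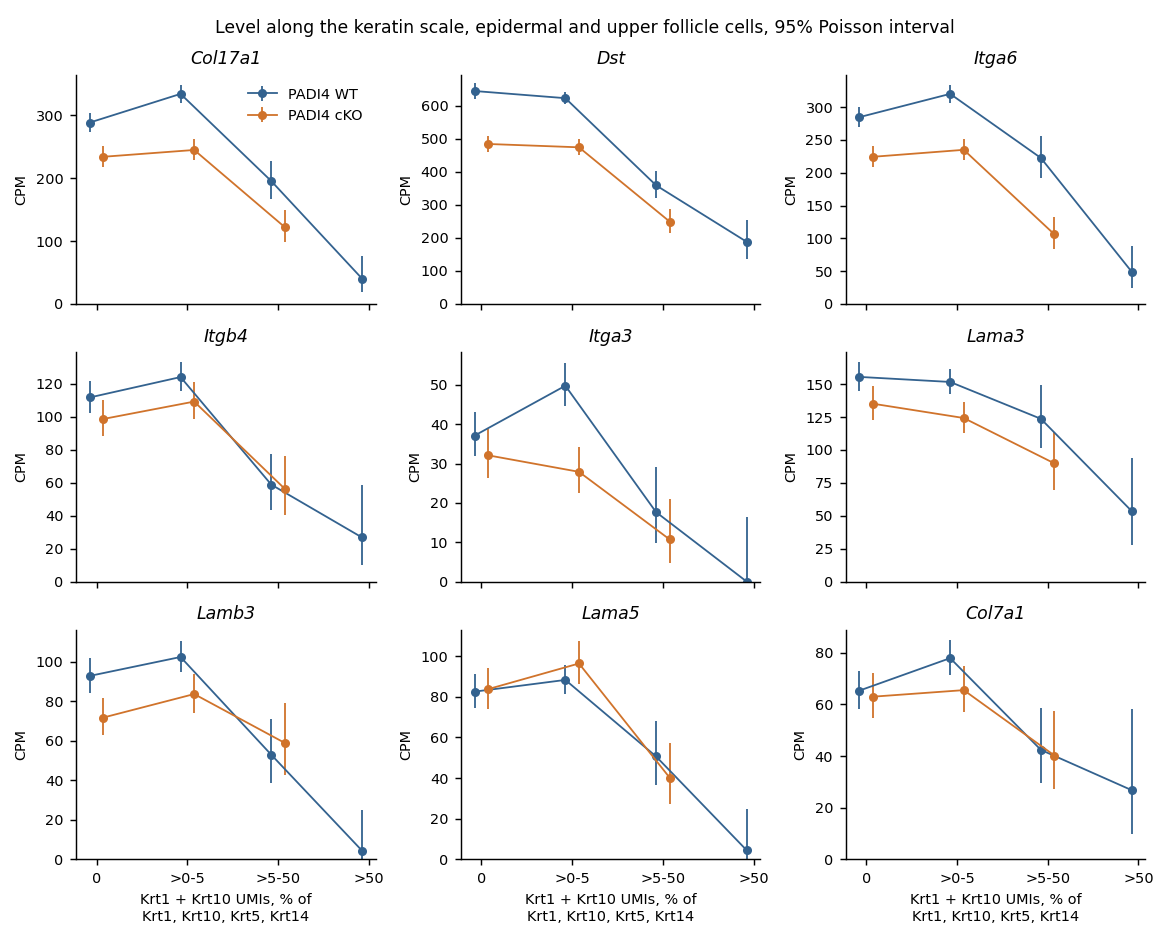
Level (CPM, 95% Poisson interval) of the 9 genes in epidermal and upper follicle cells, binned by the share of Krt1 and Krt10 among 4 keratins, in both libraries. Col17a1 is at 334 CPM in WT and 245 in the other library over 0 to 5%, and at 195 and 122 CPM over 5 to 50%; the last bin holds 17 WT cells.

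The 22 suprabasal epidermal-like cells of WT were lower in all 9 genes than basal-keratin epidermal cells. They are largely the cells of the last keratin bin, so this is not a separate observation. That bin held 9 Col17a1 and 42 Dst UMIs, and these cells 10 and 44. The class took a keratin share of at least 50%, so cells at 50% itself, not clearly suprabasal, could enter it. Col17a1 was at 35.2 CPM (10 UMIs) against 366, or 10.4-fold lower, and Dst at 155 against 635, or 4.10-fold lower. Itga3 gave 0 UMIs, which allows up to 10.6 CPM at 3 counts, and was at least 4.89-fold lower.

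Between the libraries, classes were compared unless a cluster belonging to them had more markers of another class than of their own among its 10 leading genes. This left out uHF-like cells, whose cluster 6 had Pparg of the sebaceous list among them, and IRS-like cells, whose cluster 16 had Shh of the germinative list. Which clusters made up a class was not part of this rule and is given where it differed between the libraries. Over 8 classes, 11 of 62 ratios (17.7%) passed a size of 0.5 on the log2 scale, beside 5.64% of all ratios of genes by class. In ORS-like, LPC-like, GL-like, SG-like and Cx-like cells none of the 9 genes passed, beside 4.5%, 4.92%, 3.56%, 5.41% and 3.23% of all genes. The 11 lay in basal-keratin epidermal cells (7), Med-like cells (3) and Krt75-high cells (1), and in all 11 the library labelled PADI4 cKO was lower. Outside these classes, Col7a1 in uHF-like cells, at 45.6 CPM in WT and 68.7 in the library labelled PADI4 cKO, was past 0.5 in the other direction (0.59, interval 0.32 to 0.86). In cluster 6 itself Col7a1 was at 31.2 and 49.0 CPM (0.65, interval 0.36 to 0.94), beside 5.42% of all genes past 0.5 there. In cluster 21, which held most IRS-like cells of both libraries, Col17a1 was at 16.2 and 7.80 CPM (-1.05) and Dst at 42.0 and 28.2 (-0.58), beside 2.94% of all genes. RNA outside cells could account for at most 11.2 CPM of Col17a1 and 23.5 of Dst in WT.

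In basal-keratin epidermal cells Itga6 was at 330 CPM in WT and 180 in the library labelled PADI4 cKO, a log2 ratio of -0.87 (-1.0 to -0.75). Itga3 was at 51.7 and 28.9 CPM (-0.84), Col7a1 at 88.1 and 55.4 (-0.67), Lama3 at 161 and 105 (-0.62), Dst at 635 and 416 (-0.61), Col17a1 at 366 and 244 (-0.59) and Itgb4 at 133 and 93.6 (-0.51). Lamb3 stood at -0.44 and Lama5 at 0.07 (-0.13 to 0.27). Of all genes 11.3% passed 0.5 in this class and 5.73% did so in the lower direction. The basal keratin Krt14 was at 4449 and 1807 CPM beside them and Krt5 at 3638 and 2457, and different clusters led the class, cluster 7 with 40.1% of the WT cells and cluster 5 with 22.4% of the others. Over all cells of cluster 7, Itga6 was at 393 and 310 CPM. There 9 of 9 genes were lower and 2 passed 0.5, beside 13.7% of all genes. In cluster 5 Itga6 was at 202 and 184 CPM, 4 of 9 were lower and 0 passed, beside 5.36%. How far the cluster mix made the class ratios was not tested. In cells with Xist and no Y-linked UMIs, 65 in WT and 259 in the other library, the ratios were smaller, at -0.35 for Itga6, -0.36 for Itga3, -0.41 for Col7a1, -0.15 for Dst and -0.10 for Col17a1, and none of the 9 passed 0.5. Genotype, animal and sex cannot be told apart in the full libraries, and genotype and animal cannot be told apart in the Xist cells either.

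In Med-like cells Itgb4 was at 71.3 CPM and 46.0 (-0.63, interval -0.84 to -0.42), Lamb3 at 25.6 and 17.7 (-0.53) and Dst at 137 and 96.1 (-0.51), beside 5.86% of all genes past 0.5 and 4.32% lower by it. Cluster 15 led this class in WT with 43.3% of its cells, and cluster 9 in the other library with 28.1%. Cluster 9 raised 4 of 8 germinative markers beside 3 medulla markers. Over all cells of cluster 15, Itgb4 was at 102 and 81.9 CPM, Lamb3 at 36.8 and 35.4 and Dst at 134 and 104. In cluster 9 they were at 43.4 and 33.5, 18.6 and 14.5, and 73.8 and 46.3. How far the cluster mix made the class ratios was not tested. In cells with Xist and no Y-linked UMIs these ratios were -0.61, -0.51 and -0.36. In Krt75-high cells Dst, the one gene with enough UMIs, was at 158 and 72.5 CPM (-1.11, interval -1.59 to -0.67), beside 8.9% of all genes past 0.5 and 6.42% lower by it.

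The comparison was also restricted to cells with Xist and no Y-linked UMIs in both libraries. Of the 8 classes, SG-like and Krt75-high cells then had 31 and 18 cells in WT, too few to be compared. In the rest, 4 ratios passed 0.5 with intervals off 0, and 3 of them were in the other direction. The share of all genes past 0.5 in these cells is not given, so this count has no background beside it. Itgb4 in Med-like cells stayed lower in the library labelled PADI4 cKO (-0.61). Lama3 in LPC-like cells, at 54.4 and 91.9 CPM, was higher (0.75), as were Itgb4 in Cx-like cells, at 30.6 and 45.5 CPM (0.56), and Col17a1 in GL-like cells, at 10.4 and 18.4 CPM (0.80). WT cells with Y-linked UMIs and no Xist held 95.4, 42.1 and 16.0 CPM of these 3. With all cells of both libraries their ratios were 0.09, 0.15 and 0.09, so the 3 rest on lower values in the Xist cells of WT. In uHF-like cells, outside the 8 classes, Col7a1 (1.07), Itgb4 (0.63) and Lama3 (0.54) were also higher in the library labelled PADI4 cKO. The 10.4 CPM of Col17a1 in GL-like cells of WT with Xist lay under the bound on RNA outside cells.

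Across clusters, Dst was lower in the library labelled PADI4 cKO in 19 of 21, with a median log2 ratio of -0.28, and Itga6 in 19 of 21, with -0.20. Of the 3348 genes compared in all 21 clusters 5.23% were lower in at least 19. In cells with Xist and no Y-linked UMIs, Dst was lower in 8 of 19 clusters, with a median of 0.03, and Itga6 in 12 of 19, with -0.07. Within the WT library, cells with Y-linked UMIs and no Xist held 802 CPM of Dst in the ORS-like class and cells with Xist and no Y-linked UMIs held 581. This was followed over 8 classes, here with uHF-like and IRS-like cells and without SG-like and Krt75-high cells. Dst was higher in the cells with Y-linked UMIs in 7, with a median log2 ratio of 0.52. Itga6 and Col17a1 were also higher there in 7, with 0.27 and 0.32. The share of all genes higher in as many classes was not computed. Lama5 was higher in 4 of 8, with a median of 0.00 to the second decimal.

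**Figure D5:**
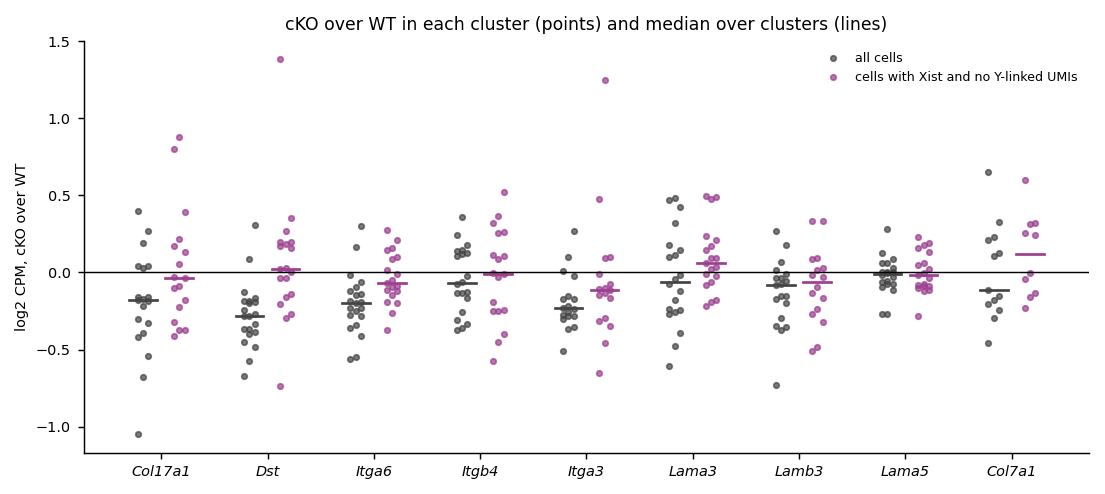
Log2 ratio of the library labelled PADI4 cKO over WT in each cluster (points) with the median over clusters (lines), for all cells and for cells with Xist and no Y-linked UMIs. The Dst median lies at -0.28 in all cells and at 0.03 in the Xist-matched cells.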

How the data were processed

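Sorted tdTOMATO-positive cells of 1 WT and 1 PADI4 cKO library (Chromium 3′ v3.1) were sequenced by the authors, who deposited unfiltered UMI counts per gene and droplet made with Cell Ranger 7.1.0 (file header) on mm10 (submitters' processing notes). Whether intronic reads were counted, which bears on long genes such as Dst, is not given in the sources used here.

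Droplets with at least 2000 UMIs and 1000 genes, at most 60000 UMIs, 8000 genes, 20% mitochondrial and 1% hemoglobin UMIs were kept, with limits on ribosomal protein UMIs at the percentiles 5 and 99. Doublets scored by Scrublet (3.62% and 4.02%, at the score limit found in the PADI4 cKO library, since the automatic limit of the WT library marked 0.0123%) were kept and left out as an alternative. Cells were gated by marker lists, and Leiden clusters (1000 variable genes, 50 components, 15 neighbours, resolution 1) were made without the members and pathway genes. The members, lists and comparisons were chosen with earlier results of these data known, and the gate limits after the data were seen. Genes named are the 9 members, 49 pathway genes and the 10 genes most alike in profile; genes named as leading a cluster were chosen after their values were seen. One pathway gene is not reported here.

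UMIs were summed per class of at least 50 cells, and 0.5 UMI was added to each sum in a ratio. Genes needed 100 UMIs. A ratio was counted at 2-fold (outer over inner) or 0.5 on the log2 scale (between libraries). Intervals are exact Poisson, binomial or conditional binomial at 95%. Those of the outer over inner ratios are approximate, combined from gamma intervals of the outer and inner means. With 1 library per genotype no test was run. Scripts were tested on simulated data. Python 3.11.15, NumPy 2.4.6, SciPy 1.17.1, pandas 2.3.3, Scanpy 1.11.5 and matplotlib 3.10.9 were used.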

Additional observations from a re-analysis of the deposited data

How the results depend on the processing

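No paired analysis was possible because the labels give no replicate numbers and each genotype has 1 library. The gates are ranges and not sharp types, since 42.2% and 45.0% of ORS-like and 62.6% and 57.0% of GL-like cells lay near a gate limit. The count of genes at least 2-fold higher in outer cells stayed at 7 or 8 of 9 under the 18 alternatives, none of which added Med-like cells. The median log2 ratio, 1.79 in WT and 1.77 in the library labelled PADI4 cKO, moved to 2.15 in WT with cells thinned to 2000 UMIs, 2.94 and 2.68 with clusters in place of gates, and 2.31 in WT with a stricter margin. It was 2.05 in the library labelled PADI4 cKO with ORS-like cells alone as outer cells, 1.59 and 1.52 with LPC-like cells alone, and 1.53 in that library with GL-like cells added. It was 1.46 and 1.32 without IRS-like cells, 2.44 and 2.61 without Cx-like cells, and 2.21 in WT with the suprabasal epidermal-like cells added, an alternative chosen after seeing the data. Lama3 in WT was at 0.12 without Cx-like cells and 0.02 with clusters. The 11 ratios past 0.5 between the libraries became 7 with thinned cells and 4 in cells with Xist and no Y-linked UMIs. In the latter, SG-like and Krt75-high cells were too few to be compared. The cause of these shifts was not tested.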

Other observations

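Outside the pathway lists, the 10 genes whose level followed the mean of the 9 genes most closely over 20 points (10 classes in 2 libraries, so points share a library) were Serpinb6a (Pearson r = 0.98), Abcc5, Paox, 1110012L19Rik, Zdhhc18, Maml2, Ctnnal1, Arhgef3, Thap3 and Arhgef10 (r = 0.93), of 8490 genes considered. Serpinb6a, coding for a serine protease inhibitor, was at 175 and 162 CPM in ORS-like cells and 56.5 and 55.6 in IRS-like cells. Arhgef3 was at 199 and 219 CPM in ORS-like cells and 20.6 and 26.4 in IRS-like cells. Of the 9 genes themselves, Lama3 (r = 0.44) and Lama5 (r = 0.73) followed their mean least, and the other 7 had values of 0.88 to 0.95. That mean contains each of the 9, which raises their values, so they do not compare with those of the 10 outside genes.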
